A study of Mus musculus with 16 samples.

Results

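The type II cadherins Cdh6, Cdh7, Cdh8, Cdh9, Cdh10, Cdh11, Cdh12, Cdh18, Cdh20 and Cdh24 were followed in the cortex of 5xFAD mice fed a vehicle or a rapamycin diet. These 10 genes were taken by symbol from the 47593 genes of the count table, Cdh6 being a gene that the study names among those that fell. All 10 had counts above the filter on low values and were among the 16553 genes tested. In the main fit 4 of them (Cdh6, Cdh12, Cdh8 and Cdh11) were lower under rapamycin, and the largest difference was in Cdh6.

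Every mouse carried the 5xFAD transgenes, driven by the Thy1 promoter in neurons, so that amyloid plaques form early in both diets. Each diet was fed to females and to males, which gives 4 groups of 4 libraries, each library being labelled as cortex tissue and sequenced from polyadenylated RNA. The diets ran from 2 to 5 months of age, the vehicle diet holding the encapsulation carrier without rapamycin, an inhibitor of the mTOR kinase. Per the labels, 11 libraries belong to batch 1 and 5 to batch 2. No mice without the transgenes were analysed here, so all comparisons are between diets or sexes within the amyloid model. Bulk RNA from cortex pools all of its cell types, and fewer cells of a type cannot be told apart from less RNA per cell.

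Classical cadherins are single-pass membrane proteins that join neighbouring cells in a calcium-dependent way. In the type II branch, the first extracellular cadherin domain of one cell inserts a pair of tryptophan side chains into a pocket of the partner, and the cytoplasmic tail binds p120 catenin and beta-catenin. Neurons express these genes in combinations that differ between cortical areas, layers and nuclei, and the family is known for sorting neurons and matching synaptic partners. By sequence and binding preference the members fall into a group of Cdh6, Cdh9 and Cdh10, a group of Cdh7, Cdh12, Cdh18 and Cdh20, and a group of Cdh8, Cdh11 and Cdh24.

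The coding bases of the tryptophan pair can be shown for each gene. The 60 coding bases at the start of the mature first cadherin domain are shown for all members because they carry the feature that sets type II cadherins apart; capitals mark the TGG codons for tryptophan at codons 2 and 4 of the stretch. Sequences and positions are those of GENCODE M21 on GRCm38, and each stretch lies in 1 coding exon.
Cdh6 (chr15:13091659-13091718, minus strand): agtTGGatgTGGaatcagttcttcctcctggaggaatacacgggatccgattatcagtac
Cdh9 (chr15:16778257-16778316, plus strand): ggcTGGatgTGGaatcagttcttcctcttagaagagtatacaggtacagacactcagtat
Cdh10 (chr15:18899751-18899810, plus strand): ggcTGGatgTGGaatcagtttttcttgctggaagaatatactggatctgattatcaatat
Cdh7 (chr1:109994321-109994380, plus strand): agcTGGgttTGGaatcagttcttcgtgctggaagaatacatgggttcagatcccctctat
Cdh12 (chr15:21237843-21237902, plus strand): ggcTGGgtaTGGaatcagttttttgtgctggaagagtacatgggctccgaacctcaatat
Cdh18 (chr15:23173861-23173920, plus strand): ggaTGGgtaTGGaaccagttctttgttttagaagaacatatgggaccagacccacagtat
Cdh20 (chr1:104934274-104934333, plus strand): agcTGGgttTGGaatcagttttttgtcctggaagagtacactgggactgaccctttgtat
Cdh8 (chr8:99400735-99400794, minus strand): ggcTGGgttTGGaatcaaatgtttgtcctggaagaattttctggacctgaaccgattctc
Cdh11 (chr8:102679621-102679680, minus strand): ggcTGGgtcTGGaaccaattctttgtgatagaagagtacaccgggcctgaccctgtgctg
Cdh24 (chr14:54639353-54639412, minus strand): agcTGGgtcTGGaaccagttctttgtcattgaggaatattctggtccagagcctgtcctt
Each stretch was located by searching the translated transcripts for this tryptophan pair, which was found in all 10 members. The TGG codons at codons 2 and 4 are thus given by the search, and they count as equal bases in every identity below. Over the 45 pairs of genes, identity ranged from 58.3% to 81.7% of the 60 bases, with a median of 71.7%. Cdh6 was closest to Cdh10, at 81.7%, and to Cdh9 and Cdh7, at 75%, and least like Cdh8 and Cdh11, at 58.3%. Cdh12 was closest to Cdh7, at 81.7%, and to Cdh20, at 80%.

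The genes are large and lie mostly apart from other exons. Cdh6 (chr15:13034200-13173639, minus strand), Cdh9, Cdh10, Cdh12 and Cdh18 are on chromosome 15, Cdh7 and Cdh20 on chromosome 1, Cdh8 (chr8:99024471-99416471, minus strand) and Cdh11 (chr8:102632995-102785111, minus strand) on chromosome 8, and Cdh24 on chromosome 14. These spans are the GRCm38 coordinates of the counted exons, and that of Cdh12 is chr15:21111452-21589533 on the plus strand. Cdh8 shares 23 exon bases with Gm15679, and Cdh24 shares 284 with Gm20726; the counting did not use strand, so reads there cannot be assigned to one gene. The counted exons of Cdh6 cover 2632 bases, 29.2% of its exon bases in GENCODE M21, and end 5499 bases short of the 3′ end annotated there. For Cdh11 the share was 47.3%, and the counted model ends 900 bases short. Cdh7, Cdh8, Cdh10, Cdh18 and Cdh20 were counted over all of their M21 exon bases.

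Promoter sequences are shown for 3 of the 4 members that were lower in the main fit. The reference table used here gives promoters for 9 of the 10 members, all but Cdh11. Those of Cdh6, Cdh8 and Cdh12 are printed as RefSeq has them on GRCm38.p6, from 250 bases before to 50 bases after the annotated start; capitals mark any match, on either strand, to the E-box core CACGTG, the TATA box TATAAA, the CCAAT box or the GC box GGGCGG.
Cdh6 (chr15:13173626-13173925, minus strand): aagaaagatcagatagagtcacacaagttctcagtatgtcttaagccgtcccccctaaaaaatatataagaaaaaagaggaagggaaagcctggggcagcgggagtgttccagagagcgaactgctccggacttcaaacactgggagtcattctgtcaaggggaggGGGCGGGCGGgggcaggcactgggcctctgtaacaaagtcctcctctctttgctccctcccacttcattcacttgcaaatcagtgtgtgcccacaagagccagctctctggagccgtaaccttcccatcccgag
Cdh8 (chr8:99416422-99416721, minus strand): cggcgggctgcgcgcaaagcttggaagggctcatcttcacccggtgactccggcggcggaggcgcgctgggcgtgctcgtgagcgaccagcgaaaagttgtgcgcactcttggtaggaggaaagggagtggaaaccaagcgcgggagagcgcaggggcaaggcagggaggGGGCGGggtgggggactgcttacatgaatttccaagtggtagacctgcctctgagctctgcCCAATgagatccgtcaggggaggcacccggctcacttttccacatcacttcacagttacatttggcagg
Cdh12 (chr15:21111202-21111501, plus strand): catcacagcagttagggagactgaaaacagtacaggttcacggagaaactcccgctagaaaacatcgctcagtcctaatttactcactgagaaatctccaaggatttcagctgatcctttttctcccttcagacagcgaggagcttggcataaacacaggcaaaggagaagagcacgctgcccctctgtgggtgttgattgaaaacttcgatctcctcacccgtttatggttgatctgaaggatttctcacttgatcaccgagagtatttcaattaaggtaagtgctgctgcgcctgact
The Cdh6 promoter holds 2 GC box matches, which overlap in 1 run, and the Cdh8 promoter holds 1 GC box and 1 CCAAT box. Over all 32851 promoters of the table, 35.7% hold a GC box and 37.4% a CCAAT box. None of these letters are in the Cdh12 window. Neither CACGTG, present in 7.15% of all promoters, nor TATAAA, present in 13.6%, is in any of the 3 windows. Members that did not pass hold such matches too. Cdh24 has 2 GC box matches, and Cdh9, Cdh18, Cdh20 and some of the Cdh7 entries hold a CCAAT box, while Cdh10 holds no match. Whether these matches bear on the differences was not tested.

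Depth ranged from 16393501 to 20593089 counted read pairs per library. One library went against its label: the library labelled male rapamycin 4 had 511.6 CPM (read pairs scaled to library size) of Xist and 0 read pairs from the Y chromosome genes Eif2s3y, Kdm5d, Uty and Ddx3y, whereas Xist was at 0.0559 to 1.01 CPM in the other 7 labelled male. Libraries also differed in how far long genes stood above short ones. The exon length slope, the change of log2 CPM relative to the mean of all libraries per doubling of exon length, was -0.127 in female rapamycin 2, -0.122 in male rapamycin 2 and -0.121 in female rapamycin 1. In the other 13 libraries it ran from -0.0333 to 0.100. The same 3 libraries had the highest share of counts from the mitochondrial genome, 6.88% to 6.99%, against at most 5.47% elsewhere. Male vehicle 4 stood apart by its choroid plexus markers, with a summed level of 2013 CPM against at most 337 in any other library.

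All members were detected in every library, Cdh11 being the most abundant. Read per exon length, with TMM-scaled library sizes, Cdh11 had a median of 12.1 RPKM (CPM divided by the counted exon length in kilobases) over the 16 libraries, with a range of 9.61 to 17.5. The lowest median, 1.92 RPKM in Cdh7, was 6.33 times lower. Between them stood Cdh20 at 7.35, Cdh8 at 6.20, Cdh18 at 4.54, Cdh10 at 4.13, Cdh9 at 3.34, Cdh6 at 2.84, Cdh12 at 2.56 and Cdh24 at 1.95 RPKM. Ranges overlapped between all neighbours in this order. Cdh11 nonetheless exceeded Cdh20 within each of the 16 libraries, whereas Cdh24 exceeded Cdh7 in 10 of 16 and Cdh6 exceeded Cdh12 in 10 of 16. These levels use the counted exon lengths, which leave out part of Cdh6 and Cdh11.

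**Figure D1:**
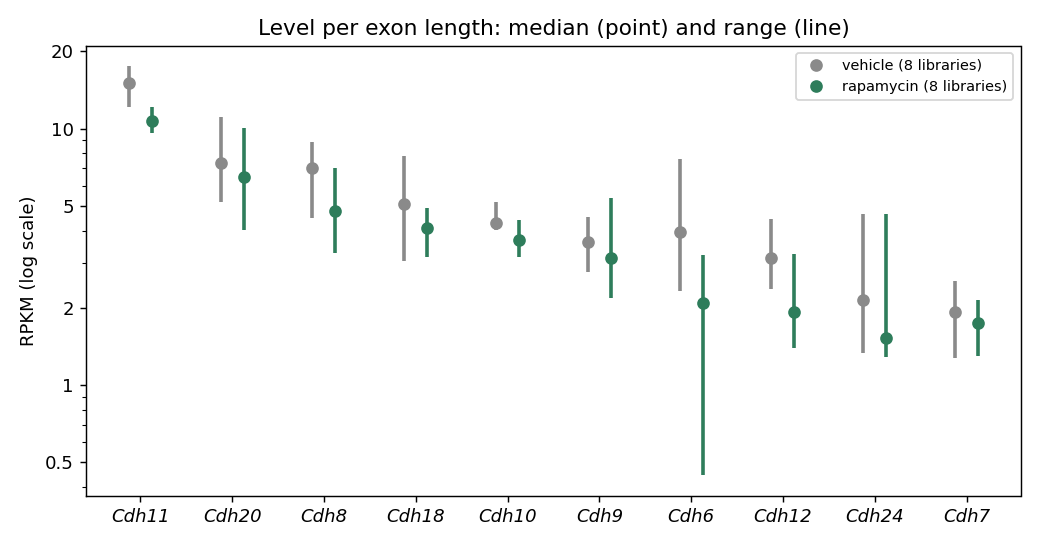
Level of each type II cadherin per exon length in RPKM, on a log axis, with the median as a point and the range over 8 libraries as a line, for vehicle and rapamycin. Cdh11 stands highest in both diets, and the Cdh6 rapamycin range reaches down to 0.446 RPKM.

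The first comparison asked how the members differed between rapamycin and vehicle over both sexes. With sex, batch and treatment in 1 fit, 4 of the 10 members passed at an adjusted p under 0.05, all lower under rapamycin. Of all genes tested, 13.3% passed in either direction and 6.86% passed lower. With a fold change of at least 1.5 also required, 2 members remained, Cdh6 and Cdh12, where 1.57% of all genes were lower by that rule. All 10 fitted differences were negative, against 47.7% of all genes, and 7 had an unadjusted p under 0.05, against 30.4%. The median log2 fold change of the members was -0.38, beside 0.02 for all genes tested. Cdh6 enters all of these counts, though the family was chosen around it because the study names it as falling in these same data. Its call and sign were thus known before and lend the family no support. These counts rest on 3 libraries to a large extent: without female rapamycin 1, female rapamycin 2 and male rapamycin 2, 0 of the 10 members and 1 gene of all passed in edgeR, and 3 members had an unadjusted p under 0.05, as did 12.9% of all genes in that fit. That fit has fewer rapamycin libraries, with no female one from batch 1.

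**Figure D2:**
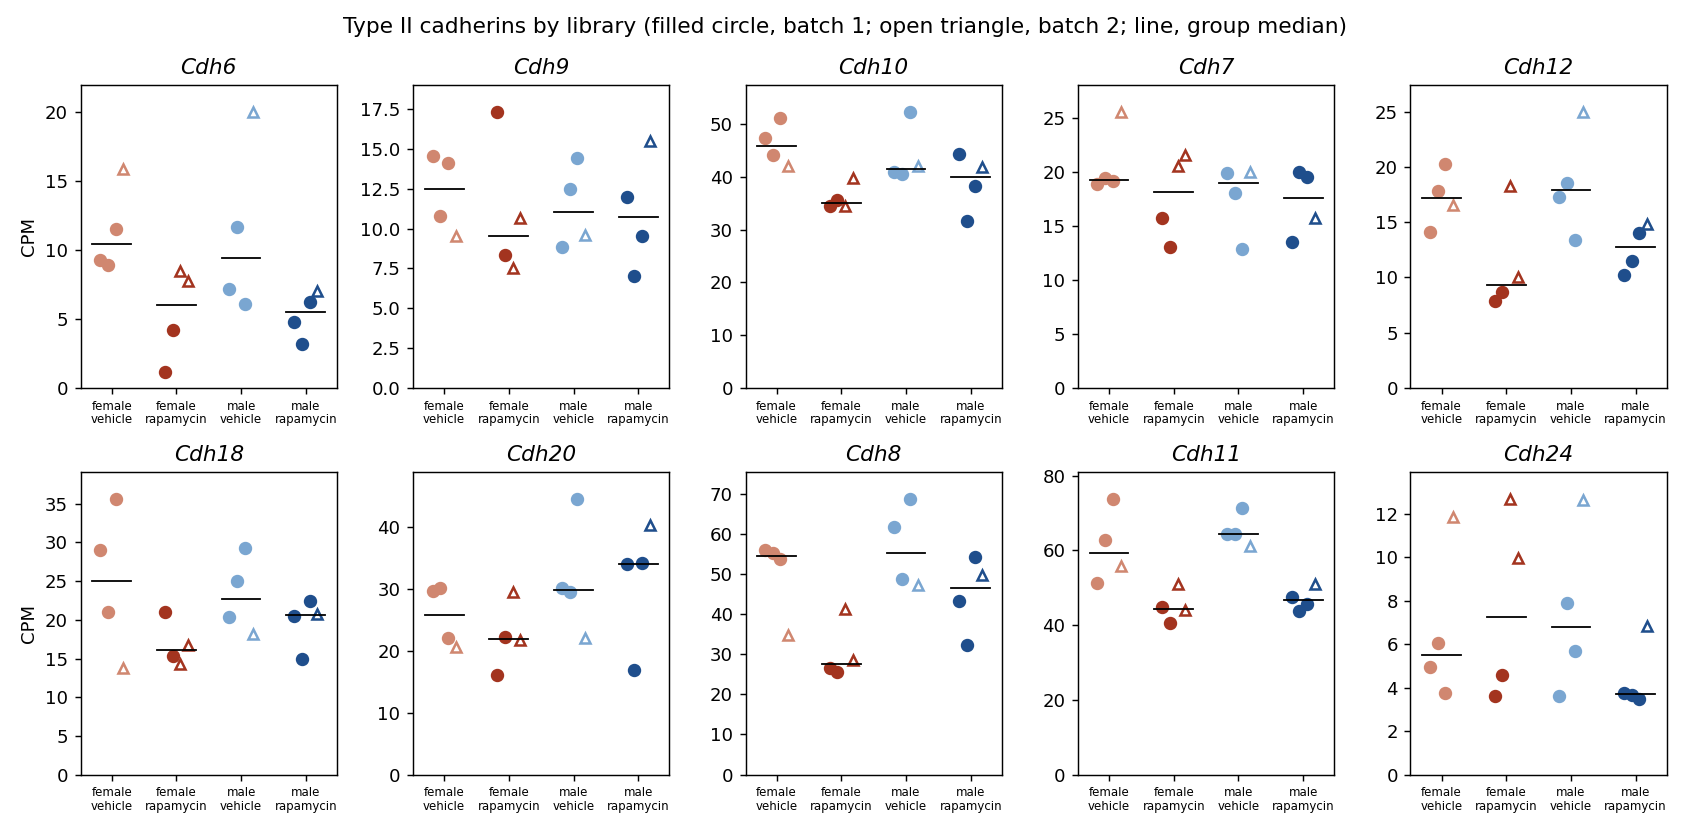
CPM of each member in every library by group, with circles for batch 1, open triangles for batch 2 and a line at the group median; all axes start at 0. Cdh11 is the member whose rapamycin libraries, up to 51.1 CPM, all lie below its vehicle libraries, from 51.4 CPM.

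Cdh6, first described in kidney and known in brain for marking cortical areas, showed the largest difference. In female vehicle mice it was at 9.28, 8.94, 11.5 and 15.9 CPM, and in female rapamycin mice at 1.17, 4.19, 8.46 and 7.76 CPM. In male vehicle mice it was at 7.19, 11.7, 6.11 and 19.96 CPM, and in male rapamycin mice at 4.81, 3.20, 6.21 and 7.05 CPM. In females all 4 rapamycin values were under the lowest vehicle value, a separation found in 3.65% of all genes and in 3 of the 10 members (Cdh6, Cdh10 and Cdh11). In males 2 of the rapamycin values were above the lowest vehicle value. Of these 2, the value of 7.05 CPM is from the library labelled male rapamycin 4, whose sex label is in doubt. Over both sexes the mean was 11.3 ± 4.62 CPM in vehicle and 5.36 ± 2.47 in rapamycin (SD, n = 8 each). The log2 fold change was -1.23 ± 0.226 (SE; adjusted p = 0.0104), a level 57.4% lower. The lowest value, in female rapamycin 1, rests on 23 read pairs, and without that library the log2 fold change was -1.06 (adjusted p = 0.0218).

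Cdh6 also differed between batches, so its values were read within each. In batch 1 it was at 9.12 ± 2.24 CPM in vehicle (SD, n = 6) and 3.92 ± 1.88 in rapamycin (n = 5). In batch 2 the vehicle values were 15.9 and 19.96 CPM, and the 3 rapamycin values were between 7.05 and 8.46 CPM. The difference in mean log2 CPM was -1.34 in batch 1 and -1.19 in batch 2, so it had the same sign and a like size in both. Without a batch term the log2 fold change was -1.08 and did not pass (adjusted p = 0.0908). The batch coefficient itself, fitted beside treatment, was 1.00 ± 0.234 on the log2 scale (adjusted p = 0.00338), higher in batch 2.

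The libraries with the lowest Cdh6 were those with the lowest exon length slope. That slope uses counted exon lengths. Cdh6 was counted over 2632 bases, below the median of 3766 over all genes tested, and over 29.2% of its GENCODE M21 exon bases. Cdh6 ranked lowest in female rapamycin 1, then male rapamycin 2, then female rapamycin 2, which are the 3 libraries of lowest slope and highest mitochondrial share. Its highest value, in male vehicle 4, was in the library with the highest slope, 0.100, and the lowest mitochondrial share, 2.64%. With these 3 low-slope libraries left out, Cdh6 had a log2 fold change of -0.96 ± 0.180 (adjusted p = 0.120), beside -1.23 ± 0.226 in the main fit. That fit has no female rapamycin library of batch 1, and its adjusted p values depend on all genes tested, of which 1 passed. With the slope as a covariate it was -0.67 ± 0.307 (adjusted p = 0.841), and with the mitochondrial share -0.87 ± 0.297 (adjusted p = 0.567). In each of these 2 edgeR fits 0 of the 16553 genes passed, and an unadjusted p under 0.05 was found for 2 members with the slope (5.83% of all genes) and for 3 with the mitochondrial share (7.96% of all genes). The slope was 0.000395 to 0.100 in vehicle and -0.127 to 0.0640 in rapamycin libraries, so it moved with diet, and its part in the difference cannot be told apart from that of diet by these fits alone.

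**Figure D3:**
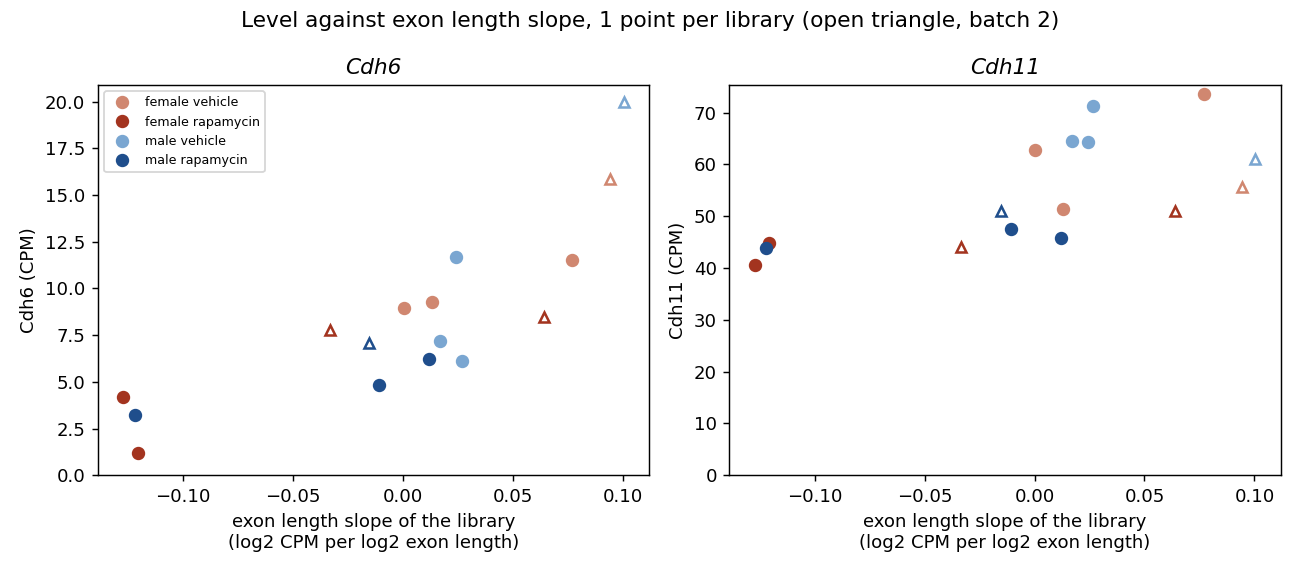
CPM of Cdh6 and Cdh11 against the exon length slope of each library, 1 point per library, coloured by group, with open triangles for batch 2. For Cdh6 the 3 rapamycin libraries at slopes near -0.12 are the 3 lowest, and the 2 vehicle libraries of batch 2 at the right are the highest.

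Markers of other cells moved with some of these libraries. The choroid plexus list (Ttr, Kl and others, 10 genes, none at 0 in every library) had 5 genes lower under rapamycin, where 6.86% of all genes passed lower. The sum of that list ran from 16.4 to 2013 CPM in vehicle and from 25.6 to 195 in rapamycin. Male vehicle 4, with the highest sum, had the highest Cdh6. Female vehicle 4, with the second highest Cdh6 at 15.9 CPM, had the lowest sum, 16.4 CPM. Without male vehicle 4 the Cdh6 log2 fold change was -1.20 (adjusted p = 0.0285). The cortical layer 5 list had 3 of 6 genes lower, namely Etv1, a layer 5 transcription factor, at a log2 fold change of -0.81, Parm1 at -0.60 and Bcl11b, a factor of subcortical projection neurons, at -0.43. In the same list Rbp4 was at 0.17 and did not pass. The sum of the layer 5 list was 285 to 444 CPM in vehicle and 225 to 339 in rapamycin, with none of its genes at 0 in every library. The part of choroid plexus or layer 5 content in the cadherin differences was not tested.

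The other members of the Cdh6 sequence group, Cdh9 and Cdh10, did not pass. Cdh9, known at hippocampal mossy fibre synapses, was at 8.86 to 14.6 CPM in vehicle and 7.06 to 17.3 CPM in rapamycin, with the highest value in female rapamycin 1, the library of lowest Cdh6. Its log2 fold change was -0.08 with a 95% interval from -0.44 to 0.29. Cdh10, expressed in neurons and brain endothelium, was at 40.6 to 52.2 CPM in vehicle and 31.7 to 44.3 in rapamycin. Its log2 fold change of -0.26 ± 0.0855 was close to the threshold (adjusted p = 0.0514). It passed with DESeq2 (adjusted p = 0.0251) and with the size factors of DESeq2 (0.0469). Its female rapamycin values reached 39.8 CPM and its female vehicle values began at 42.0 CPM.

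In the second sequence group Cdh12, a brain cadherin also called N-cadherin 2, passed and Cdh7, Cdh18 and Cdh20 did not. Cdh12 was at 14.1, 17.9, 20.2 and 16.6 CPM in female vehicle and at 7.86, 8.65, 18.3 and 10.1 CPM in female rapamycin mice. In males it was at 17.3, 18.6, 13.4 and 24.9 CPM in vehicle and at 10.2, 11.5, 14.1 and 14.8 CPM in rapamycin mice. In females 3 of 4 rapamycin values were below the vehicle range, all but female rapamycin 4, and in males 2 of 4 were. The male values not below it include 14.8 CPM in the library labelled male rapamycin 4, whose sex label is in doubt. The means were 17.9 ± 3.64 CPM in vehicle and 11.9 ± 3.54 in rapamycin (SD, n = 8 each). The log2 fold change was -0.65 ± 0.143 (adjusted p = 0.0140), a level 36.4% lower. The difference of mean log2 CPM was -0.70 in batch 1 and -0.54 in batch 2. Without the 3 low-slope libraries it was -0.52 ± 0.169 (adjusted p = 0.231), and with the slope as a covariate -0.27 ± 0.185 (adjusted p = 0.934).

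Cdh7, known in hindbrain and retinal neurons, ran from 12.9 to 25.5 CPM in vehicle, and its rapamycin values all lay within that range, with a log2 fold change of -0.17 and an interval from -0.40 to 0.07. Cdh18, a neuronal cadherin, was at a median of 23.1 CPM in vehicle and 18.7 in rapamycin. Its log2 fold change of -0.32 ± 0.1498 did not pass (adjusted p = 0.154), and its difference of mean log2 CPM was -0.49 in batch 1 and 0.11 in batch 2. Cdh20, also known from the developing neural tube, had medians of 29.6 and 25.9 CPM. Its log2 fold change was -0.11 with an interval from -0.46 to 0.25, and the 2 batches had opposite signs, -0.37 and 0.47. Batch 2 holds 2 vehicle and 3 rapamycin libraries, and whether the Cdh20 difference varied with batch was not tested. Its fitted log2 fold change turned positive, at 0.20, with the slope as a covariate.

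In the third sequence group Cdh11 and Cdh8 passed. Cdh11, the osteoblast cadherin that is also expressed by mesenchymal cells and neurons, was at 51.4, 62.8, 73.7 and 55.7 CPM in female vehicle and at 44.8, 40.5, 50.9 and 44.1 CPM in female rapamycin mice. In males it was at 64.4, 64.3, 71.2 and 61.1 CPM in vehicle and at 47.5, 43.9, 45.7 and 51.1 CPM in rapamycin mice. Cdh11 was the single member with all 8 rapamycin libraries below all 8 vehicle libraries, a separation found in 0.362% of all genes tested, by a margin of 51.1 against 51.4 CPM. The means were 63.1 ± 7.34 CPM in vehicle and 46.1 ± 3.63 in rapamycin (SD, n = 8 each). The log2 fold change was -0.46 ± 0.0792 (adjusted p = 0.00879), a level 27.1% lower, which is under the fold of 1.5.

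The difference of mean log2 CPM of Cdh11 was -0.53 in batch 1 and -0.26 in batch 2. Cdh11 did not differ detectably between batches, at a log2 difference of 0.02 ± 0.0859. It was the 1 member that passed without a batch term (log2 fold change -0.45, adjusted p = 0.0321). Without the 3 low-slope libraries it was -0.39 ± 0.0994 (adjusted p = 0.154). The mitochondrial share as a covariate left the fitted value at -0.47 ± 0.117 (adjusted p = 0.537), and the slope at -0.32 ± 0.112 (adjusted p = 0.769). The list of leptomeningeal and vascular fibroblasts, cells that also express Cdh11, had 1 of 10 genes lower, Slc47a1, where 6.86% of all genes passed lower. That list summed to 111 to 281 CPM in vehicle and 89.5 to 254 in rapamycin, with no gene at 0 in every library.

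Cdh8, an areal marker of frontal cortex, was at 56.0, 55.3, 53.8 and 34.7 CPM in female vehicle and at 26.5, 25.5, 41.3 and 28.5 CPM in female rapamycin mice. In males it was at 61.7, 48.7, 68.6 and 47.3 CPM in vehicle and at 43.1, 32.4, 54.3 and 49.6 CPM in rapamycin mice. The groups overlapped in both sexes, through female vehicle 4 and female rapamycin 4 and through 2 male rapamycin libraries. Of these 2, the value of 49.6 CPM is from the library labelled male rapamycin 4, whose sex label is in doubt. The means were 53.2 ± 10.1 CPM in vehicle and 37.7 ± 11.01 in rapamycin (SD, n = 8 each), and the log2 fold change was -0.51 ± 0.147 (adjusted p = 0.0328). The call was less stable than the other 3: leaving out 1 library at a time, Cdh8 passed in 8 of 16 fits, and its adjusted p reached 0.0902 without female rapamycin 1. With the replicate number as a block over both sexes, in place of the batch term, its log2 fold change was -0.46 and did not pass (adjusted p = 0.0544). Its difference was -0.71 in batch 1 and -0.06 in batch 2 on the log2 scale. Without the 3 low-slope libraries it was -0.20 ± 0.132 (adjusted p = 0.540).

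Cdh24, a broadly expressed catenin-binding member and among the least abundant, was at 3.63 to 12.6 CPM in vehicle and 3.50 to 12.7 in rapamycin. Its log2 fold change of -0.43 ± 0.166 did not pass (adjusted p = 0.0897). Most of its spread lay between batches, with 3.50 to 7.91 CPM in batch 1 and 6.85 to 12.7 CPM in batch 2.

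Batch 2 differed from batch 1 in 3 of the 10 members, all higher, where 35.5% of all genes passed this comparison and 19.1% passed higher. Cdh24 was higher by 1.27 ± 0.173 on the log2 scale (adjusted p = 5.77e-05), the largest batch difference of the family. Cdh6 followed, as given above, and Cdh12 was higher by 0.41 ± 0.152 (adjusted p = 0.0416). The other 7 members ranged from -0.38 in Cdh18 to 0.26 in Cdh7.

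The calls in Cdh6, Cdh11 and Cdh12 did not depend on any 1 library. Leaving out each library in turn, all 3 passed in 16 of 16 fits, with adjusted p values up to 0.0285 for Cdh6, 0.0275 for Cdh11 and 0.0404 for Cdh12. Without the library labelled male rapamycin 4, whose sex label is in doubt, the log2 fold changes were -1.20 for Cdh6, -0.47 for Cdh11, -0.65 for Cdh12 and -0.54 for Cdh8, and all 4 passed. Cdh10 passed in 2 of the 16 fits and Cdh24 in 1.

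**Figure D4:**
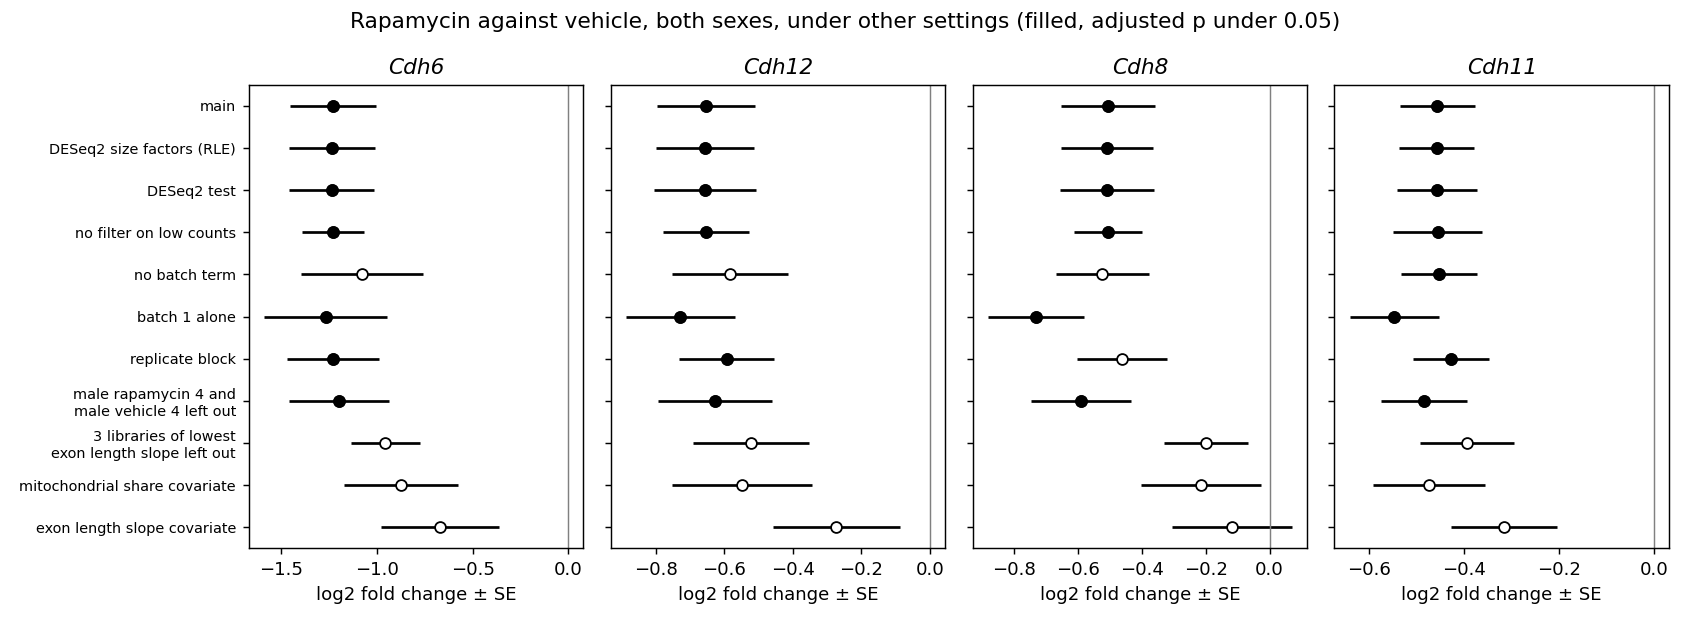
Fitted log2 fold change with its SE, rapamycin over vehicle in both sexes, for the 4 members that passed, under each other setting; filled points have an adjusted p under 0.05. All points are negative, and none is filled in the lowest 3 settings, without the 3 low-slope libraries and with either covariate.

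The next comparisons asked whether the difference was present in each sex. In females 0 of 10 members passed (0.0121% of all genes did), with Cdh6 closest at a log2 fold change of -1.49 ± 0.326 (adjusted p = 0.0594). Cdh12 was at -0.78 ± 0.209, Cdh8 at -0.70 ± 0.208, Cdh11 at -0.44 ± 0.117 and Cdh10 at -0.35 ± 0.122, with adjusted p values from 0.0709 to 0.105. These 5 members had an unadjusted p under 0.05, as did 23.1% of all genes. With DESeq2 4 members passed in females, beside 10.4% of the genes with an adjusted p: Cdh6, Cdh8, Cdh11 and Cdh12, with adjusted p values of 0.000894, 0.0180, 0.0142 and 0.0112. The same 4 passed in batch 1 alone, beside 7.75% of all genes. Without the library labelled male rapamycin 4, which enters this fit through the shared spread and batch term, Cdh6 passed in females at -1.54 (adjusted p = 0.0387), so the count in females turned on the tool and the libraries used.

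In males 0 of 10 members passed with edgeR and 0 with DESeq2, and 0% of all genes passed with edgeR. Cdh6 was at -0.99 ± 0.313, Cdh24 at -0.72 ± 0.221, Cdh12 at -0.54 ± 0.200 and Cdh11 at -0.47 ± 0.114, each with an adjusted p of 0.363 or 0.366. These 4 members had an unadjusted p under 0.05, beside 12% of all genes. The male values include the library labelled male rapamycin 4, whose Xist and Y chromosome genes go against that label. Without it Cdh6 was at -0.83 ± 0.345, Cdh24 at -0.61 ± 0.245, Cdh12 at -0.50 ± 0.228 and Cdh11 at -0.52 ± 0.128, each with an adjusted p of 0.703, and Cdh7 turned positive, at 0.10. With that library kept, all 10 fitted differences were negative in females, beside 47.9% of all genes, and in males, beside 48.7%.

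An interaction term tested whether the treatment difference itself varied with sex. None of the members passed, in edgeR or DESeq2, and none had an unadjusted p under 0.05, which 2.17% of all genes had in edgeR. For Cdh6 the female difference minus the male difference was -0.50 on the log2 scale, with an interval from -1.39 to 0.39. For Cdh11 it was 0.03, with an interval from -0.29 to 0.35. The largest was in Cdh24, at 0.58 with an interval from -0.04 to 1.19, the female difference being the smaller. The library labelled male rapamycin 4 counts as male here, and without it the difference was -0.71 in Cdh6, with an interval from -1.66 to 0.25, 0.10 in Cdh11 and 0.45 in Cdh24, and none passed. These intervals leave room for sex differences of about the size of the treatment differences in Cdh6 and Cdh24.

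Among vehicle mice, females and males were compared to see whether the members differed by sex without treatment. None of the 10 passed in edgeR (0.0121% of all genes did) or DESeq2, and none had an unadjusted p under 0.05, beside 3.55% of all genes. Differences, females over males, ran from -0.30 in Cdh20 to 0.22 in Cdh7 on the log2 scale. Cdh6 was at 0.11, with an interval from -0.49 to 0.70.

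**Figure D5:**
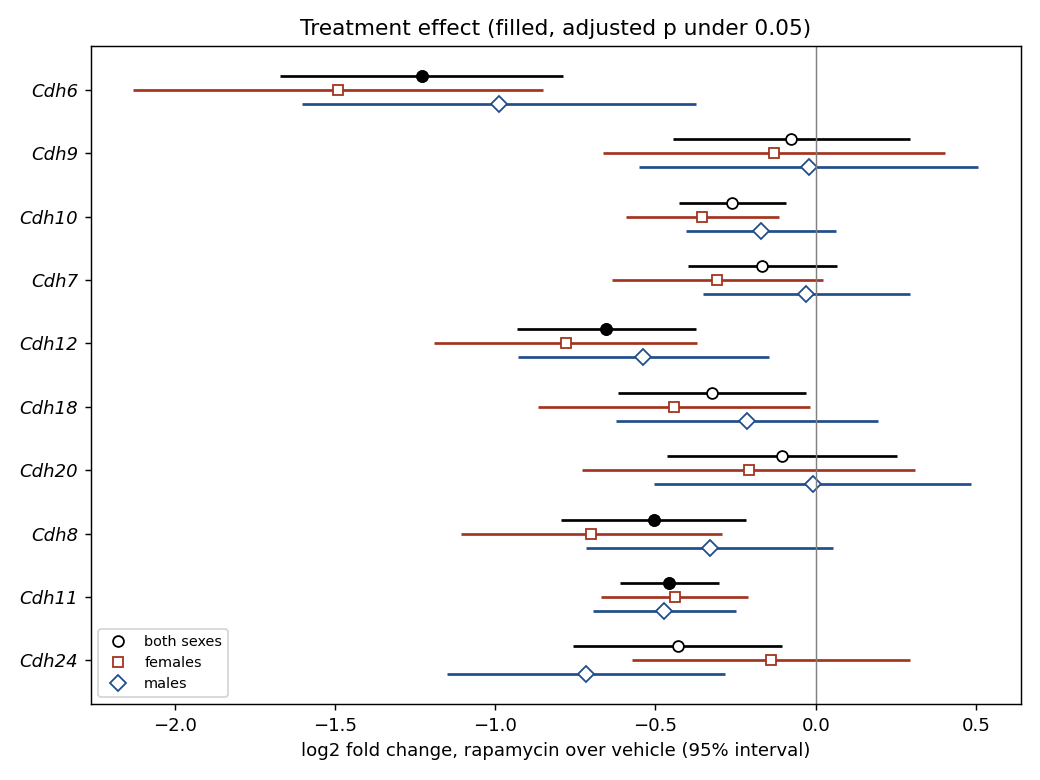
Log2 fold change of each member, rapamycin over vehicle, with its 95% interval, for both sexes, females and males; filled symbols have an adjusted p under 0.05. All 30 points are at or below 0, and the 4 filled ones are Cdh6, Cdh12, Cdh8 and Cdh11 in both sexes together.

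Other genes of the adhesion system were described from fixed lists. Among delta protocadherins, homophilic receptors that lack the catenin-binding tail, 4 of 10 were lower in both sexes together, where 6.86% of all genes passed lower. They were Pcdh7 at a log2 fold change of -0.46 (adjusted p = 0.0166), Pcdh10 at -0.33 (0.0291), Pcdh11x at -0.46 (0.0403) and Pcdh9 at -0.44 (0.0404). The median of that list was -0.41, beside 0.02 for all genes tested. Among the others, Pcdh17 was at -0.49 and Pcdh20 at -0.47, and neither passed.

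No gene of the remaining lists passed. Of 5 tested type I and other classical cadherins, Cdh1, the epithelial cadherin, was at -0.39 and Cdh15 at -0.34, and Cdh3, with 0 to 30 read pairs, was not tested. Cdh19, a cadherin of glial precursors, was at 0.37 and Cdh22 at -0.29. Of the 10 catenins and partners, which link cadherin tails to actin, Ctnna3 was at -0.25 and Ctnna2, the neuronal alpha-catenin, at -0.21, and the list had a median of -0.05. Of 5 genes for cadherin processing, Psen2, a gamma-secretase subunit, was at 0.24 (adjusted p = 0.0797) and Adam10, the sheddase, at -0.14.

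The genes most like Cdh6 across libraries were ranked by Pearson r of log2 CPM over the 16 libraries, after batch means were removed, among 14689 genes with a mean of at least 1 CPM. These libraries share the diet groups and the spread in slope, and the values are a description. The highest were 3632451O06Rik at 0.964, Atrnl1 at 0.956, Brpf3 at 0.943, Rims2, a presynaptic active zone protein, at 0.942, and Tmem132b at 0.933. The most opposed were Pdrg1 at -0.931 and Dpm3, a subunit of dolichol-phosphate mannose synthase, at -0.929. Exon lengths of the 5 most alike were 3663 to 8238 bases and those of the 2 most opposed 2443 and 919 bases, beside a median of 3766 over all genes tested. The counted length of Cdh6 itself was 2632 bases.

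Within the family Cdh12 was most like Cdh6, at r = 0.8293 and rank 317 of 14689. Cdh11 followed at 0.692, Cdh8 at 0.653, Cdh10 at 0.630 and Cdh24 at 0.521. Cdh9, of the same sequence group as Cdh6, was at -0.0893. Over the 45 pairs of members 38 correlations were positive, with a median of 0.418. Diet and the spread in slope remain in these values, and no share over pairs of all genes was computed. The highest besides Cdh6 with Cdh12 was Cdh11 with Cdh12, at 0.812, and the lowest was Cdh7 with Cdh20, at -0.387.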

How the data were processed

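RNA from mouse cortex was sequenced in 16 libraries, in pairs of 150 bp. The study's text speaks of pooled cortical samples, and its text and figure legend differ in the number of mice per group. The authors deposited raw counts of read pairs per gene, made, per the labels and the study's methods, with Trimmomatic 0.39 (first 10 bases removed), HISAT2 2.2.1 on GRCm38 and featureCounts 2.0.3, over exons, by gene name and without strand. The labels also list Trim Galore, without a version, and which trimmer was applied was not checked. Reads were not used here.

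The 47593 genes were filtered with filterByExpr (minimum count 10), which left 16553 genes with 99.9% of read pairs, scaled with TMM factors and tested in edgeR 4.0.16 (R 4.3.3) by its quasi-likelihood test; terms were treatment, batch and sex, or group (4) and batch. Adjusted p values are Benjamini-Hochberg over all genes tested; passed means under 0.05. CPM use TMM library sizes, and log2 CPM a prior count of 2. DESeq2 1.42.0, other filters and covariates were alternatives. Depth was 16393501 to 20593089 read pairs. Scripts were tested on simulated data. Each library was taken as 1 mouse; where libraries are not from separate mice, p values measure the spread between libraries.

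Groups, sex and batch are those of the labels. Members and lists were chosen with earlier results of these data known. Named are all members, list genes that passed and otherwise the 2 largest changes of a list, markers of lists that moved with a member, the sex-check genes, and the 5 genes most and 2 least like Cdh6. The values of 1 gene of a list are not reported here, though it is in that list's counts. Marker lists not described in the text had 0 genes that passed, except cortical layer 6 (1 of 8 lower), glutamatergic neurons (1 of 6 lower), hippocampus (1 of 7 tested higher) and endothelial cells (1 of 6 higher). Of all genes tested, 13.3% passed in either direction and 6.86% passed lower.

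Replicate numbers were checked for pairing by correlating same-numbered libraries' deviations from their group means. In females r was 0.435 and 0.447 within batch 1, where differently numbered vehicle and rapamycin libraries reached 0.249. It was 0.675 between female vehicle 4 and female rapamycin 4, both of batch 2. Female vehicle 4 and female rapamycin 5, also of batch 2, were at 0.240. Group means do not remove batch, and its part in these values was not tested. The female numbers were read as possible pairs, but the main fits have no pair term. Pairing within females alone was not tested in a fit. In males r was -0.157 to 0.351, so the numbers were not taken as pairs.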

Additional observations from a re-analysis of the deposited data

Results flagged for a closer look

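Among 40 combinations of a member and a group of 4 libraries, 4 held a library far from the other 3 by Dixon's test; chance flags about 1 in 20. Cdh7 was at 25.5 CPM in female vehicle 4, against 18.9 to 19.4 in the other female vehicle libraries. Cdh8 was at 34.7 CPM in the same library, against 53.8 to 56.0. Cdh10 was at 52.2 CPM in male vehicle 3, against 40.6 to 42.1. Cdh24 was at 6.85 CPM in the library labelled male rapamycin 4, against 3.50 to 3.78. Female vehicle 4 and male rapamycin 4 are the batch 2 libraries of their groups, and Cdh24 was higher in batch 2.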

How the results depend on the processing

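In the fit for both sexes, rescaling with DESeq2 size factors or testing with DESeq2 gave 5 members, adding Cdh10. Without a batch term 1 member and 142 of all genes passed; in batch 1 alone 4 members and 1240 genes; without the libraries labelled male rapamycin 4 and male vehicle 4, 4 members and 1040 genes. With either covariate, the mitochondrial share or the slope, 0 members and 0 genes passed, and without the 3 libraries of lowest slope, an alternative chosen after seeing the data, 0 members and 1 gene. The replicate block, fitted over both sexes in place of the batch term, gave 3 members and 1298 genes, Cdh8 being lost at -0.46 (adjusted p = 0.0544). It puts females and males of the same number in the same block, so it is not a test of pairing in females. The lost call is not read as a weaker effect. The block changed no other member's call. Leaving out 1 library gave 3 to 5 members and 719 (without female rapamycin 1) to 3352 genes (without female rapamycin 4). For batch 2 against batch 1, the slope covariate left 1 member and 2083 genes and the mitochondrial share 1 member and 1703 genes; leaving out 1 library gave 2 to 3 members and 4265 to 6211 genes. In females 4 members and 1678 genes passed with no filter on low counts, 4 and 1487 with DESeq2, 4 and 1290 in batch 1 alone, and 1 gene without a batch term or with either covariate; leaving out 1 library gave 0 to 4 members and 1 to 2104 genes, with 3 members without female vehicle 4, 4 without female rapamycin 4 and 1 each without male rapamycin 2, 3 or 4. In males 2 members (Cdh6 and Cdh11) and 526 genes passed with no filter, 18 genes with DESeq2 and 1 under the replicate block, and leaving out 1 library gave 0 members and 0 to 1 gene. With no filter 87 genes passed for the interaction. Between vehicle females and males 144 genes passed with no filter, 9 with DESeq2, 6 in batch 1 alone, 0 under the replicate block, 1 without a batch term or with either covariate, and 0 to 6 with 1 library left out. For the treatment effect, signs turned positive in members other than the 4 that passed. Cdh20 reached 0.20 with the slope, 0.32 with the mitochondrial share and 0.23 without the 3 low-slope libraries in both sexes, 0.15, 0.24 and 0.20 in females, and 0.22, 0.40 and 0.25 in males. Cdh24 in females reached 0.22 without a batch term, 0.14 with the mitochondrial share and 0.041 without the 3 libraries. In males Cdh7 reached 0.061 in batch 1 alone, 0.062 without male rapamycin 4 and male vehicle 4, and 0.015 with the mitochondrial share, and Cdh9 0.13 without the 3 libraries. With 1 library left out, values ran from -0.23 to 0.017 for Cdh9 and from -0.24 to 0.0092 for Cdh20 in both sexes, from -0.49 to 0.017 for Cdh9 in females, and in males from -0.14 to 0.10 for Cdh7, -0.36 to 0.17 for Cdh9 and -0.21 to 0.21 for Cdh20. The causes were not tested. Cdh6 rested on 23 to 357 read pairs per library and Cdh24 on 58 to 229, which limits the precision of their values.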
